A study of Arabidopsis thaliana with 11 samples.

Results

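SCPL25, SCPL28 and SCPL48 are serine carboxypeptidase-like genes of Arabidopsis, written scpl25, scpl28 and scpl48 in the annotation and carried by the loci AT3G02110, AT2G35770 and AT3G45010. They were taken as the 3 probe sets annotated to these symbols alone, out of 22746 probe sets tested. They are set against 26 other probe sets with 1 gene and a symbol that starts with SCPL and a digit. Another 2 probe sets with such a symbol carry several genes and are not named singly. The 3 genes were chosen by expression values of these same arrays, and the comparison that chose them is not recorded. All their differences are therefore a description with standard errors and without a test, and tests are given only for the other genes.

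The study measured sorted root cells of 7-day-old seedlings on 11 arrays. Salt-treated pericycle cells (3 arrays) and control pericycle cells (2 arrays) came from line J2731. Salt-treated cortex cells (3 arrays) and control cortex cells (3 arrays) came from line J1551. Salt-treated seedlings grew for 5 days without salt and then for 2 days with it, with NaCl at 25 mM on day 6 and 50 mM on day 7, and with added CaCl2 at 0.22 mM and then 0.375 mM. Control seedlings grew for 7 days in the same medium without these additions. All roots were digested for 30 min before sorting, so every group carries the effect of protoplasting. A replicate is the seedlings of a separate tank. The sources used here name neither the ecotype nor the reporter and its driver, and each cell type comes from 1 line, so cell type and line cannot be told apart.

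Serine carboxypeptidases are hydrolases with a serine, aspartate and histidine catalytic triad. They pass through the secretory pathway, and many act in the vacuole or outside the cell. The plant family has split in function: some members trim amino acids from the carboxyl end of proteins, while others, such as SNG1 and SCPL19, act as acyltransferases that use glucose esters to make sinapate esters. BRS1, also called SCPL24, was found in Arabidopsis because its overexpression suppresses a weak brassinosteroid receptor mutant. SCPL48 is used as a marker of developmental cell death, the process that ends xylem vessel and root cap cells.

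Values are log2 expression values as the authors deposited them. A probe set with a mean under 2.81, the value at the 40th percentile of all probe sets, is called dim, and differences that reach that level can understate the change. Levels of different probe sets cannot be set against each other, since probes bind with different strength. Precision is limited by the number of arrays. Over all probe sets the SD within a group had a median of 0.37 in pericycle salt, 0.25 in pericycle control, 0.14 in cortex salt and 0.18 in cortex control arrays. The array of pericycle salt replicate 1 was unlike the rest of its group: limma gave it a weight of 0.171, against 0.436 to 2.98 for the other arrays, and results that rest on it are given with and without it.

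Markers of the sorted cells were checked first. A listed gene is called measured where the annotation used here pairs it with a probe set of its own. That annotation names no gene for 8730 of the 22746 probe sets, so a gene not measured in this sense may still be on the array. Of 8 pericycle and founder cell markers, 2 were measured: LBD16, a transcription factor gene of lateral root initiation, averaged 6.44 in pericycle salt, 6.14 in pericycle control, 2.06 in cortex salt and 2.26 in cortex control arrays, and LBD29 was dim. Of 6 cortex markers, 3 were measured, and JKD and AT1G62500 were under the dim limit in all groups. The remaining one, AT1G09750, averaged 5.45 in pericycle salt, 5.87 in pericycle control, 4.41 in cortex salt and 5.05 in cortex control arrays. The cortex identity of the J1551 cells is thus not shown by the measured markers. No marker of xylem, endodermis, root cap or mesophyll was measured in this sense, and 0 of 4 root cap names matched a gene.

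SCPL25 was bright in cortex cells and much lower in pericycle cells. It read 3.94, 5.95 and 6.45 in pericycle salt arrays and 5.96 and 5.82 in pericycle control arrays. In cortex cells it read 9.42, 9.28 and 9.43 with salt and 8.58, 9.17 and 8.97 without it. Every pericycle array lay below every cortex array, in either condition.

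The SCPL25 difference of pericycle minus cortex was -3.93 ± 0.514 with salt (log2, limma SE, n = 3 and 3) and -3.02 ± 0.575 without it (n = 2 and 3). These are folds of 15.3 and 8.09. In absolute size, 0.457% and 1.26% of all probe sets had a difference at least as large. Without pericycle salt replicate 1, the array with the lowest SCPL25 value, the difference with salt was -3.18.

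SCPL28 showed the same order of cell types. Its values were 2.56, 4.03 and 3.69 in pericycle salt arrays and 2.42 and 3.02 in pericycle control arrays. In cortex cells they were 6.11, 6.29 and 6.31 with salt and 6.45, 6.67 and 6.43 without it. The pericycle arrays again lay below all cortex arrays, and the pericycle control mean of 2.72 was under the dim limit.

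For SCPL28 the difference of pericycle minus cortex was -2.81 ± 0.332 with salt and -3.80 ± 0.371 without it, or folds of 7.03 and 13.9. At least as large a difference was seen in 2.03% and 0.448% of probe sets. Without pericycle salt replicate 1 the difference with salt was -2.38. Because the pericycle values without salt lie at the dim level, the size of that difference may be understated. Groups of pericycle and cortex arrays did not overlap for 34.2% of all probe sets with salt and for 44.5% without it, so the lack of overlap is common on these arrays.

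SCPL48 behaved otherwise. It read 9.42, 9.36 and 9.42 in pericycle salt arrays and 10.15 and 10.01 in pericycle control arrays. Its cortex values were 10.69, 10.71 and 10.77 with salt and 9.70, 10.04 and 9.90 without it. Without salt the cell types overlapped, and with salt every pericycle array lay below every cortex array.

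The SCPL48 difference of pericycle minus cortex was -1.33 ± 0.141 with salt and 0.20 ± 0.158 without it. At least as large a difference was seen in 11.4% and 64.5% of probe sets. The replicates of SCPL48 were tight, with SDs of 0.04 in pericycle salt, 0.10 in pericycle control, 0.04 in cortex salt and 0.17 in cortex control arrays, each below the median SD of its group.

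**Figure D1:**
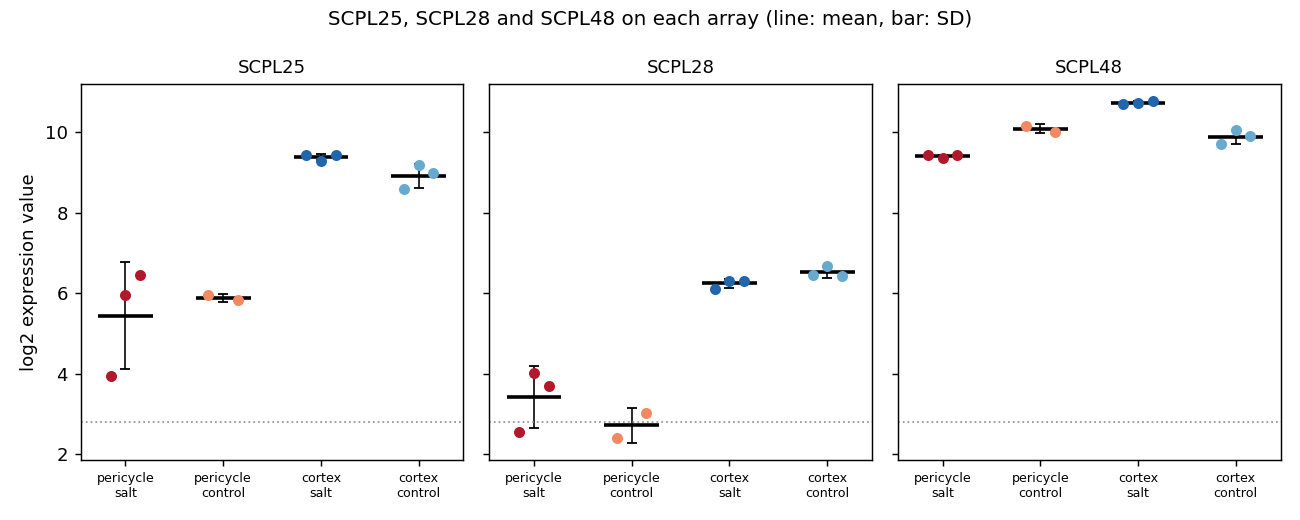
Log2 expression values of SCPL25, SCPL28 and SCPL48 on each array (points), by group, with the group mean (line), SD (bar) and the dim limit of 2.81 (dotted). SCPL25 and SCPL28 are lower on all pericycle arrays than on all cortex arrays, while SCPL48 is highest in cortex salt and lowest in pericycle salt.

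The salt comparisons asked how each cell type responded to the treatment. SCPL48 moved in opposite directions. In pericycle cells its salt minus control difference was -0.68 ± 0.158 (n = 3 and 2), and in cortex cells it was 0.85 ± 0.141 (n = 3 and 3), or folds of 1.61 and 1.8. With each cell type fitted alone the standard errors were 0.224 in pericycle and 0.127 in cortex cells. A difference at least as large in absolute size was seen in 18.8% of all probe sets in pericycle and in 8.69% in cortex cells. Salt arrays lay below both controls in pericycle cells and above all controls in cortex cells.

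Pericycle minus cortex, the responses differed by -1.53 ± 0.212, and 4.25% of all probe sets had a difference at least as large in absolute size. On all 11 arrays, SCPL48 was the only one of the 29 SCPL probe sets with 1 gene whose arrays separated in opposite directions. Over all probe sets, 1.16% were separated as higher with salt in cortex and lower with salt in pericycle. This share leaves out the reverse pattern. Without pericycle salt replicate 1, SCPL28 separated in that reverse pattern, lower with salt in cortex and higher with salt in pericycle. No share of all probe sets is given for the reverse pattern, and smaller groups separate more readily, so nothing is drawn from this. The values of SCPL48 did not depend on the array that stood apart: leaving out any 1 array kept the difference of responses between -1.61 and -1.44.

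The salt responses of SCPL25 and SCPL28 stood less clear of their errors in the fit of all arrays. In pericycle cells, salt minus control was -0.44 ± 0.575 for SCPL25 and 0.71 ± 0.371 for SCPL28, and the groups overlapped for both. With the pericycle arrays fitted alone the standard errors were larger, at 0.764 and 0.505. Without pericycle salt replicate 1, in the fit of all other arrays, the differences were 0.31 ± 0.235 and 1.14 ± 0.228, so the SCPL25 difference changed sign. The remaining SCPL28 salt arrays lay above both pericycle controls. Without pericycle control replicate 1 the SCPL28 difference was 0.40.

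In cortex cells, salt minus control was 0.47 ± 0.514 for SCPL25 and -0.28 ± 0.332 for SCPL28. The 3 salt arrays of SCPL25 lay above the 3 controls and those of SCPL28 below them. These standard errors take in the spread of the pericycle arrays, and with the cortex arrays fitted alone they were 0.162 and 0.127. Without cortex control replicate 1 the SCPL25 difference was 0.31. With no array left out, salt and control arrays did not overlap for 34.1% of all probe sets in cortex and for 21.0% in pericycle.

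The difference of responses, pericycle minus cortex, was -0.92 ± 0.771 for SCPL25 and 0.99 ± 0.498 for SCPL28. For SCPL25 it was -0.17 ± 0.303 without pericycle salt replicate 1 and -1.42 without pericycle salt replicate 3. For SCPL28 it was 1.42 ± 0.294 without pericycle salt replicate 1 and 0.68 ± 0.448 without pericycle salt replicate 2.

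Each gene gave its own order of group means. For SCPL25 the order was cortex salt (9.38), cortex control (8.91), pericycle control (5.89) and pericycle salt (5.44), and the pericycle groups overlap. For SCPL28 it was cortex control (6.52), cortex salt (6.24), pericycle salt (3.43) and pericycle control (2.72), and again the pericycle groups overlap. For SCPL48 it was cortex salt (10.72), pericycle control (10.08), cortex control (9.88) and pericycle salt (9.40), where pericycle control and cortex control overlap.

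Across the 11 arrays SCPL25 and SCPL28 correlated with r = 0.946, a value that follows mainly from the cell-type difference they share. Within the 6 cortex arrays r was -0.477 and within the 5 pericycle arrays it was 0.531. SCPL48 correlated with SCPL25 at r = 0.689 over all arrays, at 0.235 within pericycle arrays and at 0.909 within cortex arrays. SCPL48 correlated with SCPL28 at r = 0.496 over all arrays, at -0.623 within pericycle arrays and at -0.693 within cortex arrays. The values within a cell type pool salt and control arrays, so they also hold the salt differences of the genes. All these points share the arrays and their normalization.

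Of the other SCPL probe sets, 16 of 26 had a mean in the dim range, and 13 were above the dim limit in at least 1 group. SCPL genes that passed by limma with Benjamini-Hochberg adjustment over all probe sets (adjusted p under 0.05) lay on both sides. With salt, 3 were higher and 5 lower in pericycle than in cortex, against 7.76% and 10.1% of all probe sets. Without salt, 3 were higher and 2 lower, against 6.71% and 8.18%. Their median differences were 0.05 with salt and -0.01 without, beside 0.01 and 0.02 over all probe sets. Dim probe sets hold these medians near 0: over the 10 that were not dim they were -0.97 with salt and -0.58 without, beside -0.16 and -0.10 over all 13648 probe sets that were not dim. The median of the 10 with salt lies between SCPL27 and SCPL26, at -1.20 and -0.74. Without pericycle salt replicate 1 both still lay at the middle of the 10, at -0.48 and -0.68. The stronger median with salt thus rests on that array.

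The genes that passed as lower in pericycle share the direction of SCPL25 and SCPL28. SCPL34 read 4.33, 5.69 and 5.98 in pericycle salt and 7.96, 7.97 and 7.93 in cortex salt arrays, and 5.20 and 5.73 in pericycle control and 8.11, 8.02 and 8.34 in cortex control arrays. No pericycle array reached a cortex value. By limma it differed by -2.62 ± 0.363 with salt (adjusted p = 0.000802) and by -2.69 ± 0.406 without it (adjusted p = 0.00181). Without pericycle salt replicate 1 the difference with salt was -2.12.

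SCPL20 and SCPL29 passed with salt, with differences of -2.02 ± 0.273 and -2.17 ± 0.418 (limma adjusted p = 0.00071 and 0.00553). Without salt they differed by -0.60 ± 0.306 and -0.91 ± 0.467 (limma adjusted p = 0.248 and 0.254). The difference between these conditions is the difference of salt responses, which was -1.41 ± 0.41 for SCPL20 and -1.25 ± 0.627 for SCPL29 and did not pass (limma adjusted p = 0.162 and 0.47). SCPL29 depended on the array that stood apart, where it read 5.00 against 6.57 and 7.03 on the other pericycle salt arrays. Without that array its difference was -1.57 with salt and its difference of responses -0.65, and it passed without salt too, at -0.91 ± 0.19 (limma adjusted p = 0.00777). It also passed without salt with only the groups compared (limma adjusted p = 0.0321). The same values for SCPL20 without that array were -1.76 with salt and -1.15 for the difference of responses. SCPL49, named carboxypeptidase Y in RefSeq and known as a vacuolar enzyme, differed by -1.56 ± 0.415 with salt (limma adjusted p = 0.0268). It missed the threshold without any 1 of the cortex salt arrays, without pericycle salt replicate 1 or 2, and with only the groups compared.

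SCPL26 is the gene next to SCPL28 in the RefSeq annotation, with 0 genes between them, and both were lower in pericycle cells. SCPL26 read 5.06, 4.89 and 5.60 in pericycle salt and 5.96, 5.91 and 5.90 in cortex salt arrays, and 4.13 and 4.59 in pericycle control and 5.64, 5.62 and 5.60 in cortex control arrays. Its difference was -0.74 ± 0.201 with salt (limma adjusted p = 0.0287) and -1.26 ± 0.224 without it (limma adjusted p = 0.00447). The call with salt was lost without any 1 cortex salt array, without pericycle salt replicate 1 or 2, with only the groups compared, and with a trended robust prior, while the call without salt held in all 17 alternatives run.

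In pericycle cells both neighbours had higher values with salt, by 0.71 ± 0.371 for SCPL28 and by 0.82 ± 0.224 for SCPL26, and SCPL26 did not pass (limma adjusted p = 0.101). In cortex cells their values were -0.28 ± 0.332 and 0.31 ± 0.201 (for SCPL26, limma adjusted p = 0.601). The other adjacent pair with measured probe sets, SCPL22 and SCPL23, was dim in every group.

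The opposite direction was seen in 3 genes. SCPL45 read 6.42, 6.37 and 6.19 in pericycle salt and 3.91, 3.75 and 4.00 in cortex salt arrays, and 6.82 and 7.59 in pericycle control and 3.77, 4.14 and 4.21 in cortex control arrays. It was higher in pericycle by 2.44 ± 0.215 with salt (limma adjusted p = 5.46e-05) and by 3.16 ± 0.24 without it (limma adjusted p = 4.65e-05). The fold without salt was 8.96.

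SCPL50 was higher in pericycle by 1.15 ± 0.227 with salt and by 1.66 ± 0.254 without it (limma adjusted p = 0.00619 and 0.00196). SCPL35 was higher by 0.82 ± 0.206 with salt and by 1.69 ± 0.23 without it (limma adjusted p = 0.0208 and 0.00103). SCPL35 is above the dim limit in pericycle control arrays alone, at 3.46 and 3.92, so its differences rest on values near the floor. Its call with salt was lost with quantile normalization and without cortex salt replicate 1 or 3 or pericycle salt replicate 2.

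**Figure D2:**
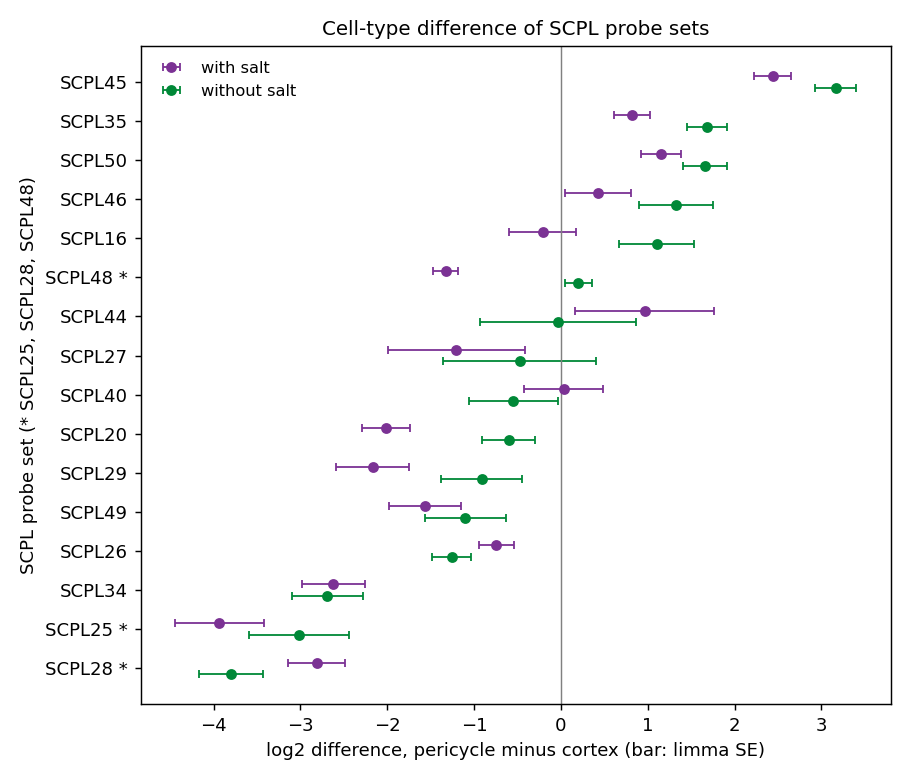
Log2 differences of pericycle minus cortex, with salt and without, for the 16 SCPL probe sets above the dim limit in at least 1 group (points, with limma SE as bars). SCPL28 and SCPL25 lie at the low end without salt, SCPL45 lies at the high end, and SCPL48 is near 0 without salt and at -1.33 with it. SCPL16, SCPL35 and SCPL44 are included only through 1 pericycle group in which they are high, which favours large differences.

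**Figure D3:**
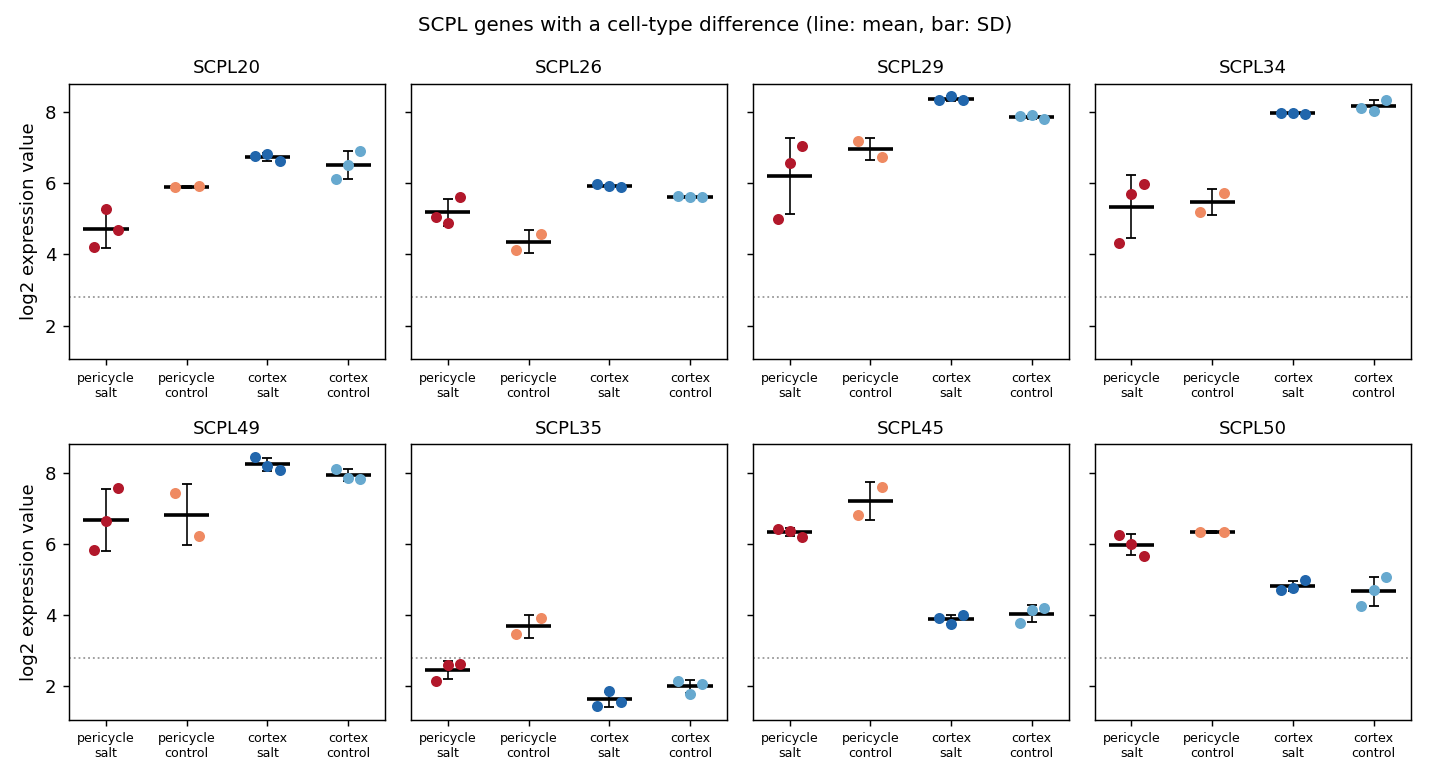
Log2 expression values on each array of the 8 other SCPL genes that passed between the cell types in at least 1 condition, with group mean (line), SD (bar) and the dim limit (dotted). By group mean, SCPL35, SCPL45 and SCPL50 are higher in pericycle than in cortex, and the other 5 are lower.

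Salt calls among the other SCPL genes are given beside the shares over all probe sets. In pericycle cells 1 of 26 passed and fell, against 0.950% of all probe sets called lower, and 0 rose, against 1.04%. By limma, 5 of the 26 had an unadjusted p under 0.05, against 16.0% of all probe sets. The gene that passed was SCPL35, which read 2.16, 2.60 and 2.62 with salt against 3.46 and 3.92 without it. Its difference was -1.23 ± 0.23 (limma adjusted p = 0.0302). The call was lost without any 1 of the cortex arrays, which lend their spread to the fit, without pericycle control replicate 2, and with the pericycle arrays fitted alone.

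In cortex cells 0 of 26 passed by limma, with 0 at an unadjusted p under 0.05, against 4.16% of all probe sets called and 14.8% at an unadjusted p under 0.05. With the cortex arrays fitted alone, where 19.7% of all probe sets were called, 2 of the 26 passed: SCPL40 fell by 0.84 ± 0.164 and SCPL29 rose by 0.50 ± 0.112 (limma adjusted p = 0.00803 and 0.0136). SCPL40 read 5.70, 5.64 and 5.52 with salt against 6.81, 6.32 and 6.25 without it, and SCPL29 read 8.34, 8.44 and 8.33 against 7.87, 7.91 and 7.81. Neither gene overlapped between the cortex groups. The median salt difference of the 26 was -0.14 in pericycle and -0.02 in cortex cells, beside 0.00 and 0.01 over all probe sets. Over the 10 that were not dim it was -0.56 in pericycle and 0.09 in cortex cells, beside 0.02 and 0.07 over all probe sets that were not dim. The pericycle median of the 10 lies between SCPL29 and SCPL50, at -0.75 and -0.36. Without pericycle salt replicate 1 both still lay at the middle of the 10, at -0.15 and -0.50, so the size of that median rests partly on that array.

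For the difference of responses, 0 of 26 passed by limma, with 4 at an unadjusted p under 0.05, against 0.835% of all probe sets called and 12.4% at an unadjusted p under 0.05. The 4 were SCPL16, SCPL20, SCPL35 and SCPL45, each more negative in pericycle, and they were named after their values were seen. Without pericycle control replicate 1, SCPL16 passed at -2.26 ± 0.304 (limma adjusted p = 0.00863). That fit leaves 1 pericycle control array, replicate 2 at 3.90, which is assumed to vary like the other groups, while replicate 1 was at 2.01.

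**Figure D4:**
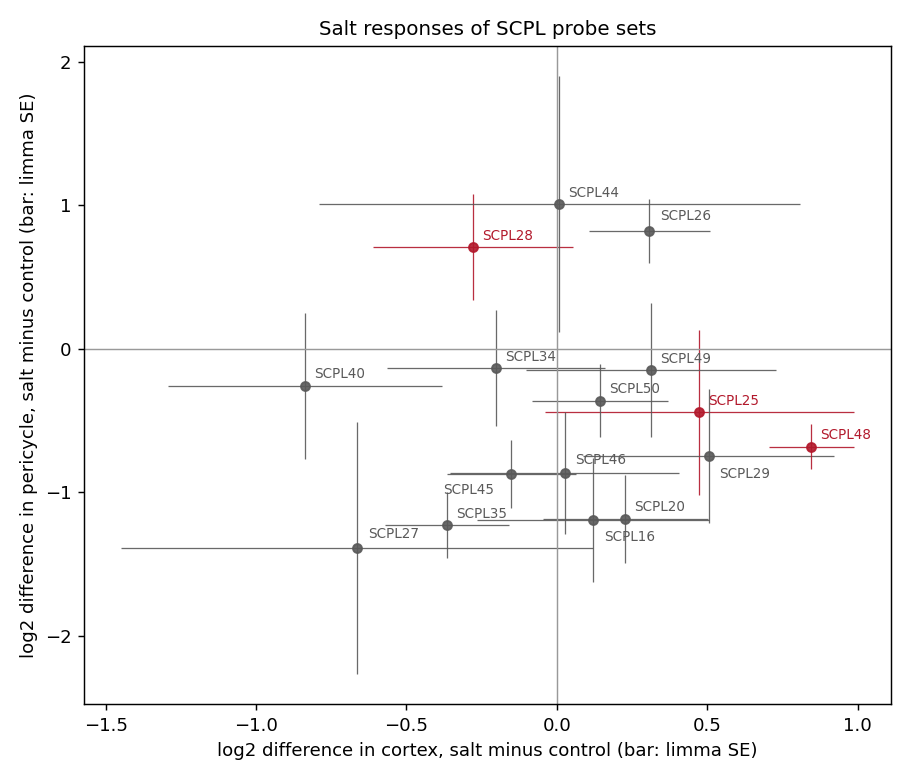
Salt minus control differences in pericycle cells (vertical axis) and in cortex cells (horizontal axis), both log2, for the 16 SCPL probe sets above the dim limit in at least 1 group, with limma SE as bars. SCPL48 lies at 0.85 in cortex and -0.68 in pericycle, with short bars, while the bars of SCPL25 cross 0 on both axes and those of SCPL28 on the cortex axis. SCPL16, SCPL35 and SCPL44 are included only through 1 pericycle group in which they are high, which favours large differences in pericycle.

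Markers of other cells were compared in the same arrays. Of 9 phloem markers, 2 were measured, OPS and CLE41, and their mean ranged from 4.33 to 5.51 in pericycle salt, 3.63 to 4.41 in pericycle control, 2.93 to 3.26 in cortex salt and 2.84 to 3.26 in cortex control arrays. OPS was higher in pericycle by 2.82 ± 0.325 with salt and by 1.67 ± 0.363 without it (limma adjusted p = 0.000269 and 0.0122), and the call without salt was lost without pericycle control replicate 1. CLE41 did not pass in either condition. Of 12 root hair markers, 2 were measured, EXPA7 and EXPA18, with means of 2.57 to 4.36 in pericycle salt, 3.61 to 4.33 in pericycle control, 2.82 to 3.90 in cortex salt and 4.79 to 5.30 in cortex control arrays. Neither root hair gene passed in any comparison. Their means separated with salt in cortex cells. Between the cell types they overlapped with salt and separated without it, lower in pericycle. Without salt EXPA7 differed by -1.76 ± 0.534 and EXPA18 by -0.26 ± 0.566. The part of these cells in the SCPL differences was not tested, and fewer cells of a type and less RNA per cell cannot be told apart in sorted bulk samples.

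RNA quality measures separated with salt in both cell types. The 3' minus 5' difference of the actin control probe sets was 2.81 to 3.03 in pericycle salt, 2.02 to 2.50 in pericycle control, 2.09 to 2.53 in cortex salt and 2.19 to 2.32 in cortex control arrays. The GAPDH difference ran the other way in pericycle cells, at up to 1.35 with salt and at 1.43 to 1.49 without it. The ubiquitin difference was 2.60 to 2.83 in cortex salt and 2.34 to 2.56 in cortex control arrays, and it overlapped between the pericycle groups. Some of these measures also separated the cell types. With salt, the actin difference was higher on every pericycle array than on every cortex array, while GAPDH and ubiquitin overlapped. Without salt, the GAPDH difference was higher on both pericycle arrays than on the cortex arrays, which reached at most 1.254. Actin and ubiquitin overlapped there. The part of RNA quality in the salt responses of SCPL48 and SCPL35 was not tested, nor was its part in the SCPL differences between cell types.

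Genes of related processes were sparsely measured. None of the 3 family members named above for acylation and brassinosteroid signalling (BRS1, SNG1 and SCPL19, also called SNG2) was paired with a probe set of its own in the annotation used. Of 14 genes named for developmental cell death, 3 were measured, all of them vacuolar processing enzymes, which are cysteine proteases that mature vacuolar proteins and act in plant cell death. BETA-VPE was higher in pericycle by 2.54 ± 0.381 with salt and by 2.30 ± 0.426 without it (limma adjusted p = 0.0013 and 0.00545). GAMMA-VPE differed by -0.70 ± 0.186 with salt (limma adjusted p = 0.0264), a call lost without any 1 of 4 arrays (cortex salt replicates 1 and 3, pericycle salt replicates 2 and 3), and none of the 3 passed for salt in either cell type.

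Of 10 genes named for sinapate ester and phenylpropanoid acylation, 5 were measured, and 1 was higher and 2 were lower in pericycle in both conditions. HCT, an acyltransferase of lignin precursor synthesis, was higher by 2.92 ± 0.315 with salt and by 2.09 ± 0.352 without it (limma adjusted p = 0.000181 and 0.00329). ALDH2C4, the aldehyde dehydrogenase that forms ferulic and sinapic acid, differed by -1.65 ± 0.179 and -1.76 ± 0.201 (limma adjusted p = 0.000192 and 0.000385). The glucosyltransferase gene UGT84A4 differed by -1.51 ± 0.252 and -1.24 ± 0.282 (limma adjusted p = 0.00247 and 0.0149), and its call without salt was lost with only the groups compared and without cortex control replicate 1 or pericycle control replicate 1.

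Other lists showed little. Of 18 genes named for abscisic acid and water deficit, 3 were measured, and LEA4-5, a late embryogenesis abundant protein gene, was the one that rose with salt in pericycle cells, by 1.50 ± 0.313 (limma adjusted p = 0.0432), a call lost in 11 of 17 alternatives. COR47, a dehydrin gene, was higher in pericycle with salt by 0.57 ± 0.132 (limma adjusted p = 0.0139), and this call was lost without cortex salt replicate 2 or 3. The 1 measured gene of 19 named for brassinosteroid signalling, BRL1, was dim, and the 1 measured gene of 13 other proteases and inhibitors, the cystatin gene CYS1, passed in no comparison.

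The genes with the pattern most like each of the 3 were sought by Pearson correlation over the 11 arrays, among 7438 probe sets with 1 gene and a mean at or above the dim limit. For SCPL48 these were AT5G66240 (r = 0.966), AT1G65020 (0.942), AT3G06480 (0.933), AT2G41705 (0.922) and HAT3.1 (0.909), a homeodomain protein gene. AT5G66240 averaged 7.53 in pericycle salt, 8.15 in pericycle control, 8.51 in cortex salt and 7.99 in cortex control arrays, which is the group order of SCPL48. AT5G66240 and AT1G65020 stayed at ranks 1 and 2 without pericycle salt replicate 1.

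For SCPL25 they were AT5G16230 (r = 0.987), DJ1D (0.985), APG8A, an autophagy gene (0.984), AT1G23440 (0.983) and AT3G28530 (0.983), whose probe set is of a type that can bind several transcripts. Without pericycle salt replicate 1 they ranked 20, 10, 35, 36 and 42. For SCPL28 they were EXLA1, an expansin-like gene (0.986), SWEET2, a sugar transporter gene (0.98), SIS (0.979), AT1G26920 (0.975) and AT1G70780 (0.975), and without that array they ranked 3, 21, 17, 19 and 16. Many genes share a cell-type difference on these arrays, so high values of r for SCPL25 and SCPL28 are common.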

How the data were processed

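RNA of sorted root cells was measured on 11 arrays. The authors deposited log2 values per probe set; RMA and limma are named, without versions or roles, per the submitters' processing notes, and the scale was taken as log2 from the range of the values (0.893 to 13.9, array medians 3.41 to 3.59). The values were used as deposited. After 64 control probe sets were left out, 22746 remained, of which 13513 had 1 gene in the platform annotation. All 29 SCPL probe sets with 1 gene matched RefSeq (TAIR10.1) by gene identifier. No build is named for the values, so no coordinates are given.

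All arrays were fitted with 1 mean per group with limma 3.58.1 and its default empirical Bayes step in R 4.3.3, with Benjamini-Hochberg adjustment within a comparison over all probe sets and calls at an adjusted p under 0.05. The fit was tested on simulated data that gave each probe set the same SD in all groups. The unequal spread of the real groups was not simulated, so that test does not cover it. Where a listed gene had several probe sets, the one with the highest mean was used. The genes named are the 3 genes, other SCPL genes that passed, called list members and the 5 most like genes. Members, lists and rules were chosen with earlier results of these data known. Alternatives were other arrays in the fit, array weights, a trended robust prior, quantile normalization, a filter on dim probe sets, the replicate number as a term and each array left out.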

Additional observations from a re-analysis of the deposited data

Results flagged for a closer look

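SCPL48 had salt responses of opposite direction in the cell types. All 3 pericycle salt arrays (9.36 to 9.42) lay below both pericycle controls (10.01 and 10.15), and all 3 cortex salt arrays (10.69 to 10.77) lay above the 3 cortex controls (9.70 to 10.04). Over all probe sets, salt and control arrays did not overlap for 21.0% in pericycle and 34.1% in cortex, and 1.16% showed both separations in these directions. The difference of responses, pericycle minus cortex, was -1.53 (log2). This difference was not tested, because SCPL48 was picked from values of these arrays.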

How the results depend on the processing

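Counts of called probe sets depended on the spread used. For salt in cortex, 946 probe sets (326 higher, 620 lower) became 4487 (2582 higher, 1905 lower) with only the groups compared and 4775 (2687 and 2088) with array weights, and the other SCPL probe sets called became 2 in both, against 0. For salt in pericycle, 453 became 0 with only the groups compared, 32 with array weights and 194 with the replicate block, and the 1 SCPL call became 0 in these settings and without dim probe sets. For the difference of responses, 190 became 121 with the replicate block. The replicate numbers are not tied across groups by the labels. Residuals of same-numbered arrays correlated from -0.0213 to 0.107 in cortex and from 0.00639 to 0.0537 in pericycle. Of the arrays, 2 of 6 in cortex and 3 of 5 in pericycle correlated best with their own number. Pericycle salt replicate 3 has no control of its number, and the residuals of the 2 pericycle controls mirror each other. The pericycle count therefore cannot show whether these arrays are paired. Without single arrays the counts ran from 362 to 1701 for salt in cortex, 183 to 1124 for salt in pericycle, 53 to 635 for the difference of responses, 2258 to 5007 for the cell types without salt and 2461 to 5102 with salt. Those of the other SCPL probe sets ran from 0 to 0, 0 to 3, 0 to 1, 5 to 7 and 5 to 8. The SCPL48 difference between cell types without salt was 0.34 with quantile normalization.

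Without single arrays, SCPL48 ran from 0.76 to 0.93 for salt in cortex, -0.76 to -0.61 for salt in pericycle, -1.61 to -1.44 for the difference of responses, 0.11 to 0.28 for the cell types without salt and -1.35 to -1.30 with salt. In the same order SCPL25 ran from 0.31 to 0.61, -0.95 to 0.31, -1.42 to -0.17, -3.18 to -2.88 and -4.44 to -3.18, the change of sign being 0.31 without pericycle salt replicate 1. SCPL28 ran from -0.32 to -0.20, 0.40 to 1.14, 0.68 to 1.42, -4.10 to -3.50 and -3.12 to -2.38. LEA4-5 lost its call in 11 of 17 alternatives. A fit without 1 pericycle control array leaves 1 in that group, which is assumed to vary like the others. The cause of these shifts was not tested.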

Other observations

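SCPL44 was dim on all arrays except pericycle salt replicate 1, where it read 5.64. The other pericycle salt arrays read 2.03 and 1.79, and the pericycle control arrays 2.26 and 2.03. SCPL27 varied widely within pericycle cells, at 1.50, 3.08 and 4.29 with salt and at 5.86 and 2.84 without it, while its cortex values ran from 3.64 to 4.55 with salt and from 4.65 to 5.01 without it. SCPL46 read 3.19, 3.50 and 4.48 in pericycle salt and 5.18 and 4.00 in pericycle control arrays. In cortex it read 3.10, 3.42 and 3.36 with salt and 3.48, 3.49 and 2.82 without it. Its difference of pericycle minus cortex without salt was 1.32 ± 0.426 and did not pass (limma adjusted p = 0.0666). It passed in 4 alternatives: without dim probe sets (limma adjusted p = 0.0468), without pericycle salt replicate 1 (0.0377) or 3 (0.0309), and without pericycle control replicate 2 (0.0278), which leaves 1 array in that group. These genes were named after their values were seen.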
